A study of Mus musculus with 3 samples.

Results

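RBFOX2 crosslink clusters lying in introns within 500 nt upstream of an exon numbered 4629, or 5.32% of the 87021 clusters in the deposited list. A cluster was a member when its midpoint fell inside a protein-coding gene on the same strand but in no annotated exon of any transcript. The nearest exon of the gene's protein-coding transcripts also had to lie on the 3′ side of the midpoint, 1 to 500 nt away, and to be longer than 51 nt. Of the 45841 clusters in introns of protein-coding genes, another 5640 lay as close on the downstream side of such an exon and 809 lay within 500 nt of a shorter exon. A further 19586 lay beyond 500 and within 5000 nt of the nearest exon, and 15177 lay deeper still. The 4629 clusters preceded 4035 exons of 2638 genes.

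The clusters come from eiCLIP, in which RNA bound to a protein is crosslinked to it by ultraviolet light and recovered with an antibody, so that each cDNA starts next to a crosslinked nucleotide. The cells were primary hepatocytes from the livers of C57BL6/J mice, carrying no stated genetic change or treatment, and RNA was recovered with an antibody against RBFOX2 in 3 libraries that form a single group. The labels give 3 livers and 3 pellets for each library, whereas the study's methods describe 3 independent cultures, each pooled from more than 1 mouse. The authors pooled the libraries before clusters were called, so no value has a spread between libraries, no difference below was tested, and the intervals cover counting error alone. Intervals are 95% Wilson intervals for shares and exact Poisson intervals for counts, and the matched input was not analysed here. The cells were checked against marker genes. All 10 hepatocyte markers held clusters, with 11084 counts in total, and Alb was the highest at 8110. Of the 6 markers each for Kupffer cells, endothelial cells, stellate cells and cholangiocytes, 2, 2, 1 and 0 held any cluster, and their summed counts ranged from 0 to 150. None of these 24 genes held a cluster upstream of an exon, but most hepatocyte markers held none either. Among the hepatocyte markers, Cps1 had 6, Apoa1 and Hnf4a had 1 each and the others had 0. Serpina1c, Cyp2e1 and Pck1 had only 1 cluster each of any kind, with 20, 11 and 17 counts.

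RBFOX2 is an RNA-binding protein that recognises the pentamer GCAUG, often preceded by U, in introns around alternative exons and thereby shapes which exons enter the mature mRNA. Binding upstream of a cassette exon, one that can be left out, is classically associated with skipping and binding downstream with inclusion. In mouse liver, the study saw this dependence on position more clearly for exons that RBFOX2 enhances than for those it represses. The stretch just upstream of an exon also carries the branch point, the polypyrimidine tract and the AG dinucleotide of the 3′ splice site, where the spliceosome defines the start of the exon.

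Intron sequence could be read only where an annotated transcript or promoter of either strand covers it, which was the case for 76 of the 4629 clusters (1.64%, in 67 genes) with 50 nt on each side. Which clusters these are was set by the annotation, so they are not a random sample of the 4629. Of the 76 windows, 40 preceded an exon used only as a first exon, a kind that followed 5.42% of all 4629 clusters, and 0 preceded a cassette exon. GCATG, the DNA form of the motif, occurred on the strand that matches the RNA in 20 of the 76 windows (26.3%, interval 17.7 to 37.2%). It was in 4 of the 40 windows before first exons (interval 3.96 to 23.05%) and in 16 of the 36 others (44.4%, 29.5 to 60.4%), so the pooled share mixes unlike sets. CATGC, the same motif on the opposite strand, was in 14 of the 76 windows (18.4%, 11.3 to 28.6%). Shown first, chosen after their values were seen, are the 5 windows with the motif that had the highest counts, from the 5′ to the 3′ end with GCATG in capitals, on GRCm38.
Rtkn, chr6:83151501-83151657, plus strand: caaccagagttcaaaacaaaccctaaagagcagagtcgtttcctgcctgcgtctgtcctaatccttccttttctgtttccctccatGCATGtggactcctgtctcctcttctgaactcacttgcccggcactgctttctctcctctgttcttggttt
Tgm2, chr2:158131386-158131636, minus strand: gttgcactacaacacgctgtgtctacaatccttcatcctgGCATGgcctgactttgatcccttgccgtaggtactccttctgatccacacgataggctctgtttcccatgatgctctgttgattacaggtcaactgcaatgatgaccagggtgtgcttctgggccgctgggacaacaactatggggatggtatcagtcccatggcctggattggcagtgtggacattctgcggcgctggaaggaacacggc
Gnpnat1, chr14:45383518-45383783, minus strand: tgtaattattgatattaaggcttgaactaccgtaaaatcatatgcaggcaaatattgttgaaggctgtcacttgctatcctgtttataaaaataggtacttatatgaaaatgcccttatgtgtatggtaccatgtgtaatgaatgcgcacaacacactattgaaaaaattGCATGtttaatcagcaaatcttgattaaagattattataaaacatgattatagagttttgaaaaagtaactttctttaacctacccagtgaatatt
Tmem63b, chr17:45663687-45663833, minus strand: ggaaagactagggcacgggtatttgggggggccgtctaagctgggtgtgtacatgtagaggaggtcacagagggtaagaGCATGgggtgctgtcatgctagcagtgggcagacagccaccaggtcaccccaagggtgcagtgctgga
Phf10, chr17:14945403-14945648, minus strand: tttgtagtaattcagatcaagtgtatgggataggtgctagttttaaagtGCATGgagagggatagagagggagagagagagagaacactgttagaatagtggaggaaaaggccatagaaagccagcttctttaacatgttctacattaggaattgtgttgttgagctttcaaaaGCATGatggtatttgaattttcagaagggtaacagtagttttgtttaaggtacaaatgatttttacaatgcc

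These clusters held 70 counts in Rtkn, 52 in the transglutaminase gene Tgm2, 42 each in the acetyltransferase gene Gnpnat1 and in Tmem63b, and 26 in Phf10. The Rtkn cluster lay 121 nt before the exon, and its motif began 36 nt downstream of the 5′ end of the cluster. The Tgm2 cluster was centred 3 nt before its exon, and its motif began 10 nt upstream of the cluster's 5′ end. The Phf10 window held GCATG 2 times, the first starting 1 nt before the cluster. The median count was 20 with the motif and 16 without it. Windows before first exons made up 4 of the 20 with the motif but 40 of all 76. Wider clusters also gave longer windows to search, so these medians are not a like comparison. The longer form TGCATG, which includes the U before the pentamer, was in 11 of the 76 windows.

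The motif share was set beside that of windows of the same length displaced by 500 nt in either direction, where these had sequence. This held for 86 of 152, and a displaced window can lie in an exon or promoter, so these are not matched intron. GCATG was in 12 of 86 displaced windows (13.95%, interval 8.17 to 22.8%) against 26.3% of the windows at clusters, and these intervals overlap. Without the clusters before first exons, it was in 11 of 53 displaced windows (20.75%, interval 12.0 to 33.5%) against 44.4% at clusters, again with overlapping intervals. CATGC was likewise in 12 of the 86 displaced windows. The share was 18.6% of 70 windows downstream of exons, 25.2% of 131 windows beyond 500 and within 5000 nt of an exon and 33.3% of 63 deeper windows. Of all 32851 RefSeq promoters, which are 300 nt long, 21.95% held GCATG. Exons have complete sequence, so the exon behind each cluster was searched as well. GCATG was in the first 100 nt of 9.33% of 3783 exons that followed a cluster (interval 8.45 to 10.3%) and of 8.67% of the other exons of the same genes, which is within the interval.

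The clusters upstream of exons were of middling height. Counts, each a cDNA start pooled over the 3 libraries, ranged from the list minimum of 10 to 828 with a median of 17 and quartiles of 13 and 24. The median was 17 for clusters downstream of exons and 16 for those beyond 5000 nt. A count of 39 or more, which marks the top 10% of the whole list, was reached by 375 (8.10%, interval 7.35 to 8.92%). The same share was 8.85% downstream of exons, 15.0% beside short exons and 6.37% in the deep introns. The upper end was less extreme than in the whole list: the top 47 clusters, 1% of those upstream of exons, held 8.50% of their 102008 counts, whereas the top 1% of all clusters held 33.8%. The top 1% held 9.85% downstream of exons and 11.5% beside short exons, so the low share was not particular to the upstream side. The median width was 24 nt (quartiles 7 and 70). At most 5 nt wide were 21.3%, against 19.2% downstream of exons and 26.7% of the whole list. Count was weakly related to width (Spearman's rank correlation 0.224 across the 4629 clusters) and hardly to distance from the exon (0.0145). Clusters share genes and libraries, so these are descriptions. In 601 cases (12.98%) the cluster reached into the exon itself, and in 951 (20.5%) the exon on the other side was also within 500 nt, as in short introns.

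Clusters were densest next to the exon. Per megabase (Mb) of intron available at each distance in the same 7337 genes, the 50 nt before an exon held 222.6 clusters (interval 209.0 to 236.9) and the outermost 50 nt held 104.9 (93.6 to 117.1). Most of that decline lay within the first 150 nt, since the density was already 116.3 in the bin that ends there. The 601 clusters that reached into the exon are included and lie near it, since no cluster was wider than 200 nt. How much of the rise came from them was not computed. By midpoint, the mirrored stretch downstream was more densely covered, from 280.8 clusters per Mb in the first 50 nt to 112.9 in the last. Over all 500 nt, the upstream density was 0.795 times the downstream one by midpoint (interval of the ratio 0.765 to 0.827). Placed by the 5′ end of the cluster, it was 0.978 times, so the gap depends on which point stands for a cluster. By midpoint, the gap was wider for high clusters close to the exon. Those with 39 counts or more reached 12.9 per Mb upstream and 23.97 downstream within 50 nt, a ratio of 0.540 (0.392 to 0.744).

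**Figure D1:**
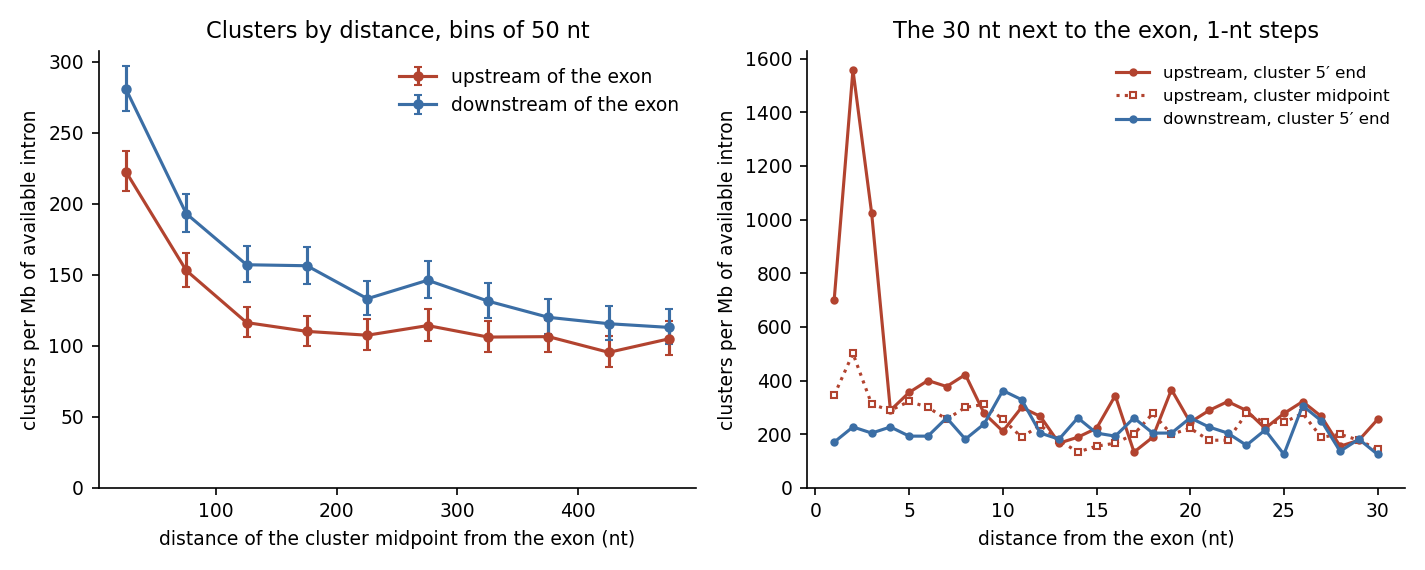
Left, clusters per Mb of available intron in bins of 50 nt by distance of the midpoint from the exon, upstream (red) and downstream (blue), with exact Poisson intervals: the upstream curve falls from 222.6 to 104.9 and stays under the downstream one. Right, the 30 nt next to the exon in steps of 1 nt, without error bars, where the upstream curve for the cluster's 5′ end (red, filled) peaks at 2 nt with 1558 per Mb.

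A finer pattern appeared when clusters were placed by their 5′ end, the first crosslinked position in the direction of transcription, in place of the midpoint. Clusters that began 1, 2 and 3 nt before an exon numbered 63, 140 and 92, and the number fell to 26 at 4 nt. These 295 clusters, in 263 genes, had a density of 1095 per Mb (interval 973.2 to 1227), compared with 262.5 (247.3 to 278.4) at 4 to 50 nt. At the same 1 to 3 nt downstream of exons, 53 clusters began, or 200.6 per Mb (150.2 to 262.4). The AG of the 3′ splice site occupies the last positions of the intron, so by position these clusters began at or beside it. Reads were not examined here, so whether reads that cross a splice junction contributed to these starts was not tested. They had a median width of 50 nt, 277 of them (93.9%) extended into the exon, and 18.6% reached 39 counts (interval 14.6 to 23.5%) against 8.59% of those that began at 4 to 50 nt (7.08 to 10.4%). Only 29 of the 295 had a midpoint in the intron and so were among the 4629. The peak stood before both main kinds of exon, cassette exons (21 clusters, 1164 per Mb, interval 720.3 to 1779), which transcripts can skip, and constitutive exons, which they keep (145 clusters, 1119 per Mb, 944.6 to 1317). Which point stands for a cluster therefore decides the comparison of the sides near the exon: within 10 nt the upstream density was 0.885 times the downstream one by midpoint (interval 0.754 to 1.04) and 2.49 times by 5′ end (2.11 to 2.93).

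Exons were sorted by their annotated use. A cassette exon was skipped by at least 1 protein-coding transcript that spans it, a constitutive exon was used with the same ends by every one of 2 or more spanning transcripts, and the remaining internal exons were left as other. Of the 4629 clusters, 549 (11.9%) preceded a cassette exon, 1914 (41.3%) a constitutive one, 1450 another internal exon and 465 a last exon. A further 251 lay before an exon used only as a first exon, which has no 3′ splice site. The exon began in coding sequence for 89.2% of the clusters.

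Cassette exons were preceded by more clusters than constitutive ones. The density was 214.9 clusters per Mb of upstream intron (interval 197.3 to 233.7) for cassette exons and 109.4 (104.5 to 114.4) for constitutive exons, with last exons between them at 155.3. The difference was larger away from the splice site. Within 50 nt the densities were 252.2 (198.7 to 315.6) and 202.0 (183.5 to 221.9), whereas beyond 100 and within 300 nt they were 220.5 (193.0 to 250.7) and 94.7 (87.7 to 102.1). Beyond 300 nt they were 183.9 and 87.2. The downstream side shared this difference, with 250.8 clusters per Mb at cassette exons (231.2 to 271.6) and 129.9 at constitutive ones (124.4 to 135.5), and with 276.5 against 120.2 beyond 100 and within 300 nt. Accordingly, 13.8% of the clusters before cassette exons were within 50 nt of the exon (11.2 to 16.98%) and 22.8% of those before constitutive exons (20.96 to 24.7%). More of the clusters before cassette exons reached 39 counts, 12.6% (10.05 to 15.6%) against 7.52% (6.43 to 8.79%).

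**Figure D2:**
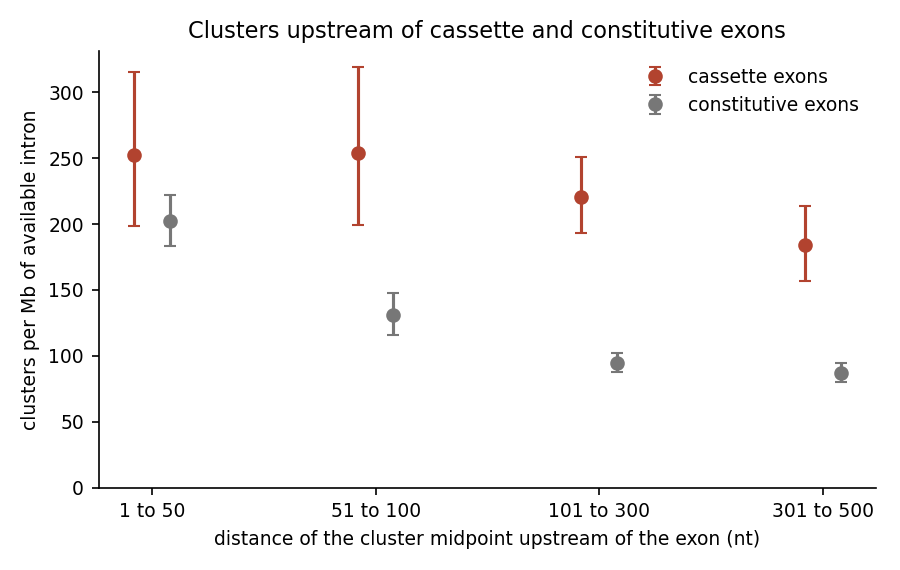
Clusters per Mb of available upstream intron, by distance of the midpoint from the exon, for cassette (red) and constitutive (grey) exons with exact Poisson intervals. The intervals overlap within 50 nt (252.2 and 202.0) and stand apart farther out, with 220.5 against 94.7 beyond 100 and within 300 nt.

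Genes differ in how many transcripts are annotated and how deeply they were sampled, so exons were also compared within genes. Among cassette and constitutive exons, 19.4% of the 2113 with a cluster upstream were cassette exons (interval 17.8 to 21.1%), against 13.0% of the other exons of the same genes, weighted to match. With clusters of 17 counts or more, the median of the list, the shares were 21.3% (18.99 to 23.9%) and 12.5%. With 39 or more, they were 29.8% of 191 exons (23.8 to 36.7%) and 11.0%. Exons that followed a cluster more often had a long intron before them, with 66.8% after an intron of over 1000 nt compared with 53.9%. Restricting the comparison to exons after such introns, an alternative chosen after seeing the data, left the cassette share higher at exons with a cluster by 7.10 percentage points, against 6.41 for all exons. Exon length divisible by 3, which keeps the reading frame when the exon is skipped, was found at 55.4% of cassette exons with a cluster (interval 49.2 to 61.4%) and at 54.5% of the other cassette exons of the same genes.

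**Figure D3:**
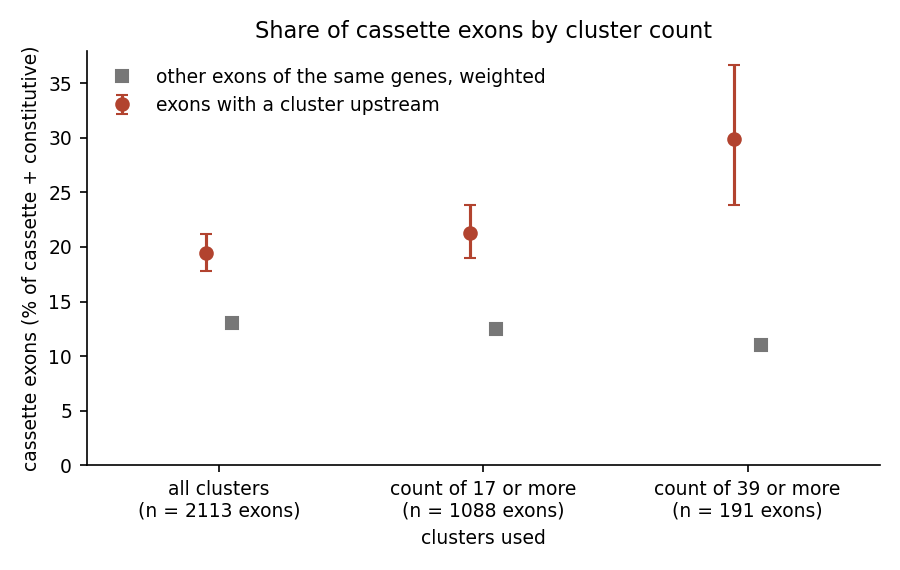
Cassette exons as a percentage of cassette plus constitutive exons, for exons with a cluster within 500 nt upstream (red, Wilson intervals) and for the other exons of the same genes (grey, weighted), by the count a cluster needed. The share with a cluster was 19.4%, 21.3% and 29.8% and the other share 13.0%, 12.5% and 11.0%.

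Some exons had clusters on both sides. Both flanks within 500 nt held a cluster at 365 exons, of which 93 were cassette and 158 constitutive. The summed upstream count was the higher one at 180 of them, the downstream count at 171, and 14 were equal. Among cassette exons, 23.1% of the 268 with an upstream cluster also had a downstream one (interval 18.5 to 28.5%), against 16.1% of the cassette exons of the same genes without an upstream cluster. For constitutive exons the shares were 9.55% (8.20 to 11.1%) and 9.14%.

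Most exons had a single cluster. Of the 4035 exons, 3693 had 1, 217 had 2 and 125 had 3 or more, and 3 or more stood before 6.09% of the cassette exons with any (interval 4.19 to 8.77%) and 2.37% of the constitutive ones (1.75 to 3.20%). A group of 6 exons had 9 or more and together held 70 clusters. They were exon 7 of Gclc-201 with 14, exon 29 of Dgkd-201 with 13, exon 19 of Actn1-201 with 12, the last exon of Epb41l5-208 and exon 7 of Pdcd6ip-202 with 11 each, and the last exon of Tpm2-201 with 9. Tpm2, a tropomyosin gene, is named here after its values were seen. The median spacing between neighbouring midpoints was 23.5 to 37.5 nt at these exons, and 6 to 11 of the clusters at each were at most 5 nt wide.

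**Figure D4:**
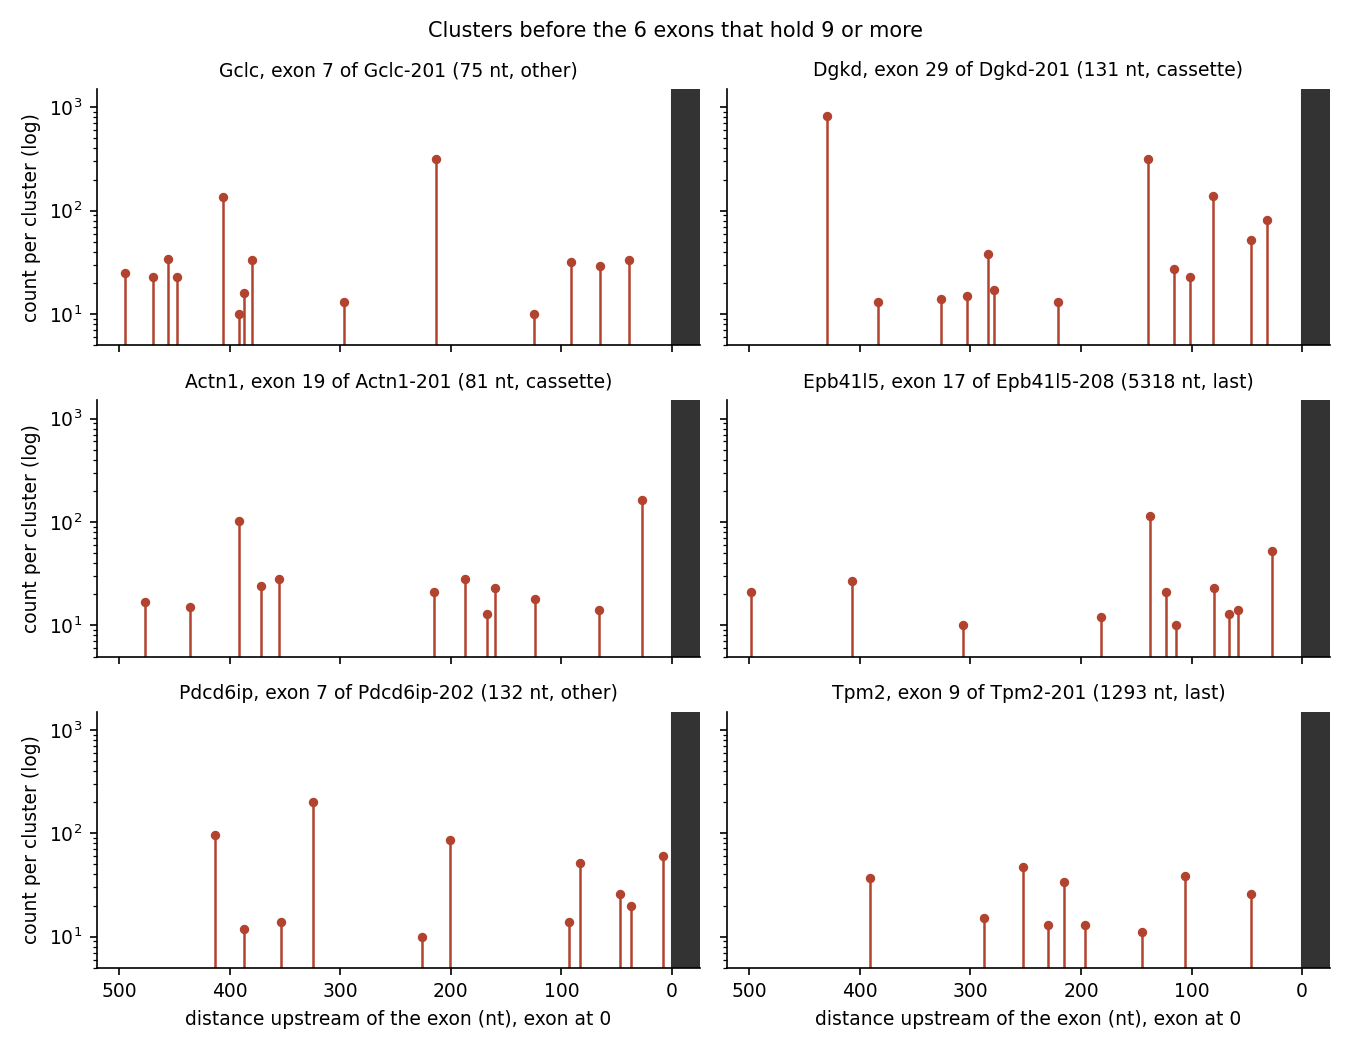
Count of every cluster (log scale) against the distance of its midpoint upstream of the exon (black bar at 0) for the 6 exons with 9 or more clusters. Dgkd has 2 clusters above 300 counts and Gclc 1, while the 9 before the last exon of Tpm2 lie between 11 and 47.

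The highest cluster, with 828 counts (chr1:87940911-87940966, plus strand), lay 430 nt before exon 29 of Dgkd-201. Dgkd encodes diacylglycerol kinase delta, which turns the lipid messenger diacylglycerol into phosphatidic acid. The exon spans 131 nt and was skipped in 2 of the 3 annotated transcripts that span it. Of the 13 clusters before it, the others with more than 50 counts lay at 139 nt (315 counts), 81 nt (138), 32 nt (82) and 46 nt (52). Together they held 1575 counts, the highest sum before any exon, and 52.6% of it was in the 828. Clusters also followed the exon, with 6 downstream summing to 224. Signal in this intron was thus listed as several clusters, and whether these are separate binding sites was not tested.

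The exons that follow the highest clusters show which part of each transcript was flanked. Below are those of Dgkd, Slk, Erbin and Gclc, from 5′ to 3′ on GRCm38, with GCATG in capitals where present.
Dgkd exon 29, chr1:87941369-87941499, plus strand: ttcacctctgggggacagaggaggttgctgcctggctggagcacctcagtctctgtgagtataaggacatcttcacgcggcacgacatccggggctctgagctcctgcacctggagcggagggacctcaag
Slk exon 13, chr19:47627648-47627740, plus strand: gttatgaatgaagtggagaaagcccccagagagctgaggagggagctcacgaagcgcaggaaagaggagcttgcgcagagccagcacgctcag
Erbin exon 22, chr13:103830188-103830331, minus strand: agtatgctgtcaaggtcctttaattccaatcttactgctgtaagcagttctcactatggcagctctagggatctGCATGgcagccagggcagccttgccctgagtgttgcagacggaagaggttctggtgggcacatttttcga
Gclc exon 7, chr9:77785334-77785408, plus strand: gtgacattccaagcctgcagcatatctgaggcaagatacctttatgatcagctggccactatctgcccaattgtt

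Slk, which encodes a Ste20-like protein kinase, held 1 cluster upstream of an exon, and it was the third highest. This cluster of 337 counts (chr19:47627480-47627650, plus strand) was 171 nt wide, was centred 83 nt before the cassette exon 13 of Slk-202 and ran into the exon. Erbin, a scaffold protein of the basolateral membrane, likewise had 1 cluster, of 292 counts, centred 86 nt before its cassette exon of 144 nt. This exon was skipped in 4 of 6 spanning transcripts, and GCATG occurred in it 1 time. Gclc encodes the catalytic subunit of glutamate-cysteine ligase, which makes the first step of glutathione synthesis. Its highest cluster had 314 counts, 213 nt before an exon of 75 nt that the single annotated coding transcript includes. Gclc held 30 clusters upstream of 11 exons, summing to 1336, and 16.8% of its 179 intronic clusters were of this kind.

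Others of the 10 highest clusters preceded exons with no annotated skipping. The cluster of 349 counts in Llph lay 409 nt before its last exon. The constitutive exons of Als2cl (274 counts at 75 nt), the unconventional myosin gene Myo9b (251 at 84 nt) and Lrrc47 (246 at 192 nt) each followed a cluster over 110 nt wide. Slc37a3, a sugar-phosphate transporter relative, had 230 counts at 353 nt. Of the 10 highest clusters, 4 stood before cassette exons, 2 of them in Dgkd.

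Alternative exons of one gene differed in the clusters beside them. Actn1 encodes alpha-actinin, an actin crosslinker whose EF-hand region is made from alternative exons, here of 81 and 66 nt. The 81-nt exon was preceded by 12 clusters summing to 468, the highest of 164 counts at 27 nt, and the 66-nt exon by 3 clusters summing to 34. The 81-nt exon comes first and was followed by 3 clusters summing to 107, the 66-nt exon by 0. The intron between them has 437 nt and is divided by the nearest exon, so less sequence was available before the 66-nt exon than before the 81-nt one, whose upstream intron has 962 nt. Slc7a2, the gene of a cationic amino acid transporter with mutually exclusive exons that set its affinity, is named after its values were seen. Its exon of 140 nt was preceded by 4 clusters summing to 340, of which 218 were at 42 nt, and was followed by 0 within 500 nt. The 137-nt exon downstream of it was preceded by 0 and followed by 6 clusters summing to 311. Only 202 nt lie between these exons, so little sequence could hold a cluster after the first or before the second. Mbnl1 and Mbnl2, splicing factors of the muscleblind family, both include an alternative exon of 54 nt. The Mbnl1 exon was preceded by 1 cluster of 30 counts and followed by 3 summing to 51, and the Mbnl2 exon was preceded by 3 summing to 65 and followed by 1 of 41. These pairs are printed for comparison, 5′ to 3′, with GCATG in capitals.
Actn1 81-nt exon, chr12:80170686-80170766, minus strand: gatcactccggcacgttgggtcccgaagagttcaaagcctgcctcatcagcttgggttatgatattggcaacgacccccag
Actn1 66-nt exon, chr12:80170183-80170248, minus strand: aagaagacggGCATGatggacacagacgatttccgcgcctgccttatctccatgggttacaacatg
Slc7a2 140-nt exon, chr8:40908056-40908195, plus strand: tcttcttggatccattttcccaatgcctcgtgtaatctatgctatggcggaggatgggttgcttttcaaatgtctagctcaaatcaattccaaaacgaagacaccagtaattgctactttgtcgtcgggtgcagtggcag
Slc7a2 137-nt exon, chr8:40908398-40908534, plus strand: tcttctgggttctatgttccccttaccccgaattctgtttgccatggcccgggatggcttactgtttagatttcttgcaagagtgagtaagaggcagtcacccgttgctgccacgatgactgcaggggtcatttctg
Mbnl1 54-nt exon, chr3:60614683-60614736, plus strand: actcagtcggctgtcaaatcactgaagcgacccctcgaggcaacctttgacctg
Mbnl2 54-nt exon, chr14:120395712-120395765, plus strand: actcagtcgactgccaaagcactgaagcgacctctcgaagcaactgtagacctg

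In a global alignment, the Mbnl1 and Mbnl2 exons were identical at 46 of 54 positions (85.2%), the Slc7a2 exons at 86 of 141 aligned columns (61.0%) and the Actn1 exons at 44 of 81 (54.3%). The related exons of one gene thus differed more in sequence than the exons of the 2 muscleblind genes. The Actn1 columns include gaps, since these exons have 81 and 66 nt. The clusters before the exons differed in number and count in every pair, the muscleblind pair included.

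Fibronectin, a matrix glycoprotein that hepatocytes secrete into plasma, showed clusters around its alternative exons too. Fn1 held 14 clusters upstream of 10 exons, summing to 572. The 273-nt cassette exon 25 of Fn1-201, absent from 6 of 7 spanning transcripts, was preceded by 3 clusters of 53, 16 and 16 counts. The constitutive exon after it followed 3 clusters summing to 331, of which the largest (205 counts) was 446 nt before it and 667 nt after the cassette exon. The 270-nt cassette exon 33 was preceded by 54 counts at 42 nt and followed by 3 clusters summing to 92.

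Sorbs2, an adaptor of actin and junction complexes, had the most clusters upstream of exons, with 40 of its 485 intronic clusters (8.25%) before 17 exons. Its cassette exon of 84 nt was preceded by 5 clusters summing to 238 and followed by 6 summing to 579, and the neighbouring 159-nt cassette exon was preceded by 5 summing to 178. In Tln1, which encodes the integrin activator talin, 15 of 33 intronic clusters (45.5%) were of this kind, spread over 10 exons with at most 57 counts each. Gc, the vitamin D-binding protein gene, had 20 clusters of at most 28 counts. Lpin2, a phosphatidate phosphatase gene, had 16, with 6 of them before its 302-nt constitutive exon summing to 199. Pdcd6ip and Dst had 14 each. The Pdcd6ip exon with 11 clusters summed to 591, with 200 counts in the highest, and lies in the gene of an adaptor for endosomal sorting. The 11 clusters before the last exon of Epb41l5-208, in a gene of the protein 4.1 family, summed to 318.

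The 7 genes that the study names for RBFOX2 crosslinking held 0 to 5 clusters upstream of exons each. Numb, an endocytic adaptor that restrains Notch signalling, had 2 of its 24 intronic clusters here. The cluster of 14 counts lay 96 nt before its 147-nt cassette exon, which was also followed by 1 cluster of 19. Its other upstream cluster, also of 19 counts, preceded a 75-nt exon with no annotated skipping. Sec31a, an outer coat subunit of COPII vesicles, had 3, and the 19 counts at 293 nt were before a 93-nt exon that 4 of 5 spanning transcripts skip. The higher clusters of Sec31a, of 35 and 30 counts, preceded constitutive exons of 59 and 75 nt. Pla2g6, a phospholipase, had 5 summing to 106, of which 4 were 127 to 297 nt before the 79-nt exon 10 of Pla2g6-210. This exon was constitutive by annotation alone, with 0 of 5 spanning transcripts skipping it. The study reports that RBFOX2 controls whether a specific exon of this gene is skipped or included. Whether that is the exon described here was not tested. Osbpl9, an oxysterol-binding protein relative, had 1 of 27 counts at 456 nt, and Snrnp70, a subunit of the U1 snRNP, had 1 of 29 counts. In Rbfox2, the gene of the protein itself, 6 of 58 intronic clusters qualified. Its cassette exon of 93 nt was preceded by 3 clusters of 11, 13 and 19 counts, at 3, 62 and 323 nt, and was followed by 3 summing to 93.

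Scarb1, the gene of the HDL receptor SR-BI, and Ptbp2, a splicing repressor of the polypyrimidine tract-binding family, had 0 such clusters. The 3 intronic clusters of Scarb1 held 18 to 25 counts, and the nearest to an exon lay 1101 nt upstream of it. That cluster was left out by the distance limit alone, so the 0 does not mean that Scarb1 lacks binding upstream of an exon. The study reports RBFOX2 binding upstream of the Scarb1 exon whose skipping the protein promotes. Whether the cluster at 1101 nt precedes that exon was not tested. Ptbp2 had 9 intronic clusters, and 5 of these were beside an exon of at most 51 nt and so fell under another class.

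Gene groups were described by how many of their genes with any intronic cluster had one upstream of an exon, beside 35.95% of all 7337 genes (2638, interval 34.9 to 37.1%) and 127.3 clusters per Mb over these genes. The lists were drawn up with earlier results of these data known. All 9 lists had a share of genes above that of all genes, so standing above it sets no list apart. Actin and junction genes held the most of the 9 lists, with 195 clusters in 28 of 45 genes (62.2%, interval 47.6 to 74.9%), or 348.0 per Mb (300.9 to 400.4). Sorbs2, Actn1, Fn1 and Dst had the highest sums among them and held 40, 21, 14 and 14 of the 195 clusters. Splicing regulators had 57 clusters in 22 of 48 genes (45.8%, 32.6 to 59.7%) and 290.2 per Mb (219.8 to 376.0). In this list Mbnl1 had 7 clusters summing to 302, Mbnl2 8 summing to 215, Ewsr1 4 summing to 113 and Rbfox2 6 summing to 86. Besides the 54-nt exon, a 95-nt cassette exon of Mbnl1 was preceded by clusters of 91 and 60 counts.

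Of the genes for other RNA-binding proteins, 14 of 19 hnRNP genes had 26 clusters (499.1 per Mb, 326.1 to 731.4) and 5 of 7 SR protein genes had 7 (642.9 per Mb, 258.5 to 1325). The available upstream intron of these lists was only 0.0521 and 0.0109 Mb, which makes the intervals wide. The hnRNP examples with the highest sums were Hnrnpa1 with 48 counts 59 nt before its exon 3, Hnrnph3 with 53 at 63 nt and Hnrnpc with 43 at 100 nt, and Hnrnpk had 3 clusters of 11 to 20 counts. In Hnrnpk, those of 19 and 11 counts were before exons used only as first exons, and that of 20 was before the last exon. Srsf5 had 3 clusters summing to 112, and Srsf7, Srsf11 and Srsf6 had 1 each of 20 to 23 counts. The Srsf11 cluster was before an exon used only as a first exon, and its window was 1 of those with GCATG.

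**Figure D5:**
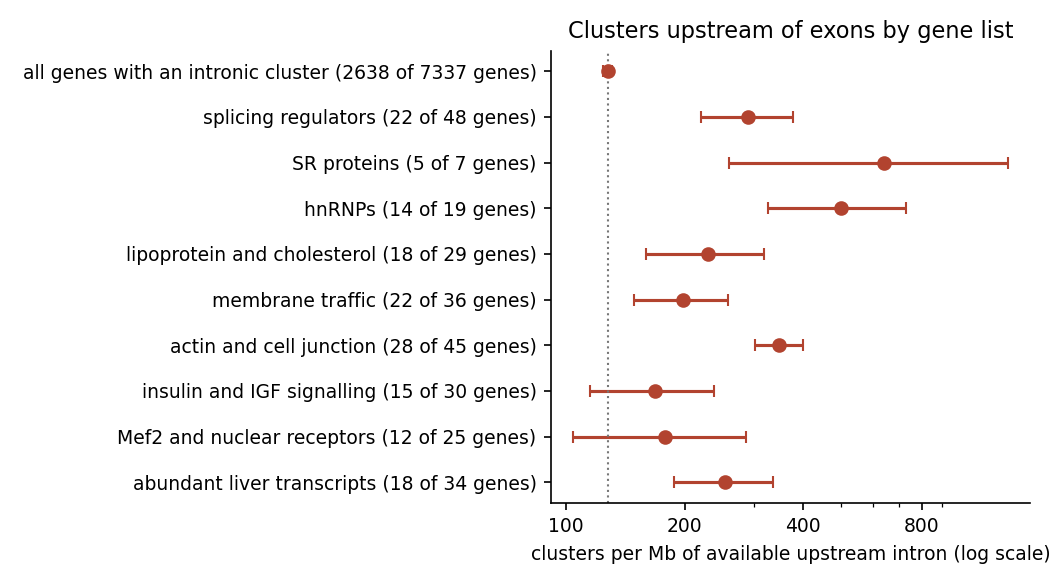
Clusters upstream of exons per Mb of available upstream intron (log scale) with exact Poisson intervals, by gene list, with the number of genes that hold one among those with any intronic cluster. The dotted line is the density over all genes, 127.3 per Mb, and the actin and junction list lies at 348.0.

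Genes of lipoprotein and cholesterol metabolism held 35 clusters in 18 of 29 genes (62.1%, interval 44.0 to 77.3%), or 228.5 per Mb (159.1 to 317.8). Soat2, which esterifies cholesterol in the liver, had 7 summing to 163, and Apob, the structural protein of very-low-density lipoproteins, had 5 summing to 100. Angptl4, a lipoprotein lipase inhibitor, had 3 summing to 77. None of the Soat2 exons had an annotated skipping transcript, since a single coding transcript spans them. Membrane traffic genes had 54 clusters in 22 of 36 genes (197.4 per Mb, 148.3 to 257.5), led in sum by Pla2g6 (106), the clathrin adaptor subunit Ap2a2 (98), the endocytic adaptor Eps15 (91) and the dynamin Dnm2 (84). In Dnm2, clusters of 19 and 12 counts preceded a cassette exon of 139 nt.

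Abundant liver transcripts had 49 clusters in 18 of 34 genes (253.7 per Mb, 187.7 to 335.3). The ferroxidase gene Cp had 5 summing to 163, the plasma glycoprotein gene Ahsg 7 summing to 133 and the urea cycle gene Cps1 6 summing to 132. Of the insulin and IGF genes, 15 of 30 had 32 clusters (168.0 per Mb, 114.9 to 237.1). Igf2r had 5 summing to 146, the insulin receptor gene Insr 5 summing to 103, the PI3-kinase subunit gene Pik3r1 2 summing to 78 and Igfbp4 4 summing to 57. The Mef2 and nuclear receptor genes had 17 clusters in 12 of 25 genes (178.5 per Mb, 104.0 to 285.8), the interval of which includes the value over all genes, as it does for the insulin list. Mef2d, a transcription factor gene, had 3 clusters of 71, 25 and 23 counts, all before its 138-nt cassette exon. The bile acid receptor gene Nr1h4 had 2 summing to 54 and Rora 2 summing to 39. Expression of these genes in the cells was not measured in this list, and its part in the differences between gene lists was not tested.

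Clusters on either side of the thresholds were much alike in count. The 66 clusters in the last 10 nt inside the limit had a median of 17.5 and the 59 in the first 10 nt outside it a median of 17. The 40 clusters before exons of 52 to 54 nt had a median of 18.5, and the 70 upstream of exons of 48 to 51 nt, which fall under short exons, a median of 20.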

How the data were processed

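RBFOX2 eiCLIP was done in 3 libraries from primary mouse hepatocytes. According to the labels and the study's methods, the authors trimmed adaptors with cutadapt, aligned reads end to end to GRCm38 with STAR 2.4.2a, kept uniquely mapped reads, removed duplicates by barcode and clustered the cDNA starts with Paraclu at default settings. They deposited 1 list for the 3 libraries, with a whole-number count per cluster of at least 10, read here as pooled cDNA starts, neither normalised nor input-subtracted. The depth of each library is unknown, and intervals cover counting error only.

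Clusters were placed by midpoint on GENCODE M21, 1-based, on their own strand, whereas the study names release M20. The longest exon at a 3′ splice site set the exon length, and the 2 clusters equally far from both exons counted as upstream. Available intron is every intronic position that would have qualified. Within-gene shares weight the other exons of each gene by its number of exons with a cluster. Sequence came from 141767 GENCODE M21 transcripts, placed through their exons with 0 conflicting bases, and 32851 RefSeq promoters (GRCm38.p6), also with 0. Alignments scored 1 for a match, -1 for a mismatch and -2 for a gap.

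Named genes were 8 taken from the study (7 crosslinked targets and Rbfox2), the 10 highest clusters, the 10 genes with most clusters, the 5 exons with the highest sum and the 5 with most clusters, and up to 4 genes per list by summed count. Some of these genes are not reported here. The members and lists were chosen with earlier results of these data known. The procedures were tested on simulated data. Python 3.11.15, numpy 2.4.6, pandas 2.3.3, scipy 1.17.1 and matplotlib 3.10.9 were used.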

Additional observations from a re-analysis of the deposited data

How the results depend on the processing

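Leaving out a library was impossible, since the authors pooled all 3 before clustering. No paired analysis was possible because only 1 group exists and its 3 libraries share 1 pooled list. Of 67 alternatives computed over these results, 47 left the value within its interval (or a count within 1.5 times), and the cause of the other changes was not tested except where fewer clusters were used by construction. The number of clusters was 2349 with counts at or above the median and 375 in the top 10%, and these filters set the median count of the first at 24 and its median width at 33 nt. Merging clusters within 200 nt gave a median width of 43 nt. Genes with such a cluster numbered 1574 with counts at or above the median. With the 5′ end in place of the midpoint, the ratio of upstream to downstream density was 0.978 over 500 nt and reversed to 2.49 within 10 nt, and the density at 1 to 50 nt was 3.20 times that in the outermost 50 nt, against 2.12 by midpoint. In the top 10% these ratios were 0.728 over 500 nt and 1.85. The excess of cassette exons within genes was 8.84 percentage points with counts at or above the median and 18.9 in the top 10%. The cassette density was 2.23 and 3.28 times the constitutive one under the same filters and 1.76 times with clusters wider than 5 nt, against 1.97 for all. Without the clusters before first exons, an alternative chosen after seeing the data, GCATG was in 44.4% of windows, 23.7 percentage points above displaced windows. TGCATG was in 14.5% of windows and GCATG in 66.7% of the 6 windows in the top 10%. Leaving out the exons with 9 or more clusters and limiting exon kinds to long introns were also chosen after seeing the data and left each value within its interval.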
